A study of Mus musculus with 4 samples.

Results

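The genes described here encode 10 components of the PI3K, Akt and mTORC1 signalling route: the receptor adaptors Irs1 and Irs2, the PI3K subunits Pik3ca and Pik3r1, the kinases Pdpk1 and Akt1, the transcription factor Foxo3, the GTPase Rheb, and the complex subunits Rptor and Rictor. They were taken by name, 10 of the 21900 protein-coding genes of the mouse reference, and every peak touching their mm10 spans was collected. The assay was CLIP-seq, in which ultraviolet light joins a protein to the RNA it touches, an antibody to MSI2 pulls the pair down, and the attached RNA fragments are sequenced. A peak is a stretch with more such reads than a caller's background.

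The study held 4 libraries on the C57BL6 background. The group called WT had 2 libraries, from crypts of wild-type mouse intestine, with no doxycycline recorded. The group called TRE-Msi2 had 2 libraries, from total intestinal epithelium of TRE-Msi2 mice given doxycycline for 24 hours, where the drug turns on an Msi2 transgene. Genotype, tissue fraction and drug therefore differed together and cannot be told apart. The labels do not give the driver of the doxycycline-responsive activator, the ages of the mice or whether animals were pooled.

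In this route, insulin and growth factor receptors phosphorylate the adaptors IRS1 and IRS2, which recruit PI3K. The lipid that PI3K makes brings PDK1 (the product of Pdpk1) and Akt to the membrane, where PDK1 phosphorylates Akt. Akt then removes FOXO factors from the nucleus and relieves the brake on Rheb, and Rheb activates mTORC1, the complex that holds Raptor (Rptor) and promotes protein synthesis and growth. In the intestine this route is known for its part in crypt proliferation and in the growth of tumours. Musashi proteins bind RNA, often in 3' untranslated regions, and alter the translation of their targets.

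The 2 libraries of each genotype were merged by the authors into 1 peak list, with 12061 WT and 16939 TRE-Msi2 peaks, so no value here has a replicate error and no genotype difference was tested. A single-bin peak is 200 nt wide, and its score, the authors' own, was an exact whole number, with no tolerance, in 99.1% of WT and 96.7% of TRE-Msi2 cases, as a read count would be. No single-bin score was below 15 among WT peaks or below 20 among TRE-Msi2 peaks, and the medians over all peaks were 19 and 24.7. Library depths are unknown, so scores were compared within a list only. Of the marker genes, 9 of 9 enterocyte, 4 of 4 Paneth and 4 of 4 goblet cell genes held peaks in both lists, and 0 of 6 stromal genes did in either. Of 4 immune genes, Cd74 alone held one, in both lists. Of 4 enteroendocrine genes, Cck, Chgb and Sct held peaks in both lists and Chga in the TRE-Msi2 list alone. Of 4 stem cell genes, Olfm4 and Lgr5 held peaks in both lists and Smoc2 in the TRE-Msi2 list. The strand of the Lgr5 peak was not checked here, and the strands of the other marker peaks are not given. RNA abundance was not measured, so the amount of a transcript and its binding cannot be told apart.

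A WT peak touched 7 of the 10 genes, and a TRE-Msi2 peak touched 5. Over all protein-coding genes the shares with a peak were 20.3% and 24.9%, and over genes with spans in the range of these 10 (21.1 to 297 kb) they were 28.1% and 33.3%. Pdpk1, Irs2, Pik3r1 and Foxo3 held peaks in both lists, Akt1, Rheb and Rictor in the WT list alone, and Rptor in the TRE-Msi2 list alone; Irs1 and Pik3ca held none. Both lists together held a peak in 19.1% of all protein-coding genes, the WT list alone in 1.2% and the TRE-Msi2 list alone in 5.76%. The genes were chosen with earlier results of these lists known, so these shares are read only as a description. Restricted to the higher-scoring 50% of either list, WT peaks were left in 3 of the 10 genes, namely Pdpk1, Irs2 and Foxo3, and TRE-Msi2 peaks in 4, namely Pdpk1, Irs2, Pik3r1 and Rptor, so the list with more of the 10 genes changed from WT to TRE-Msi2. The Rptor peak that was left, with a score of 25, was on the opposite strand, and without it neither list held more of the genes.

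The strand of a peak shows which strand was transcribed. All 9 WT peaks, and 13 of the 15 TRE-Msi2 peaks, lay on the strand of the gene they touched. Over all peaks that touch a single protein-coding gene of known strand, those shares were 84.3% and 86.3%. The 2 exceptions were both TRE-Msi2 peaks of Rptor. By strand, then, 7 genes held a WT peak and 4 a TRE-Msi2 peak, and none held a TRE-Msi2 peak alone. The own-strand shares over all protein-coding genes of known strand were 16.5% (WT) and 20.5% (TRE-Msi2). None of the 24 peaks touched a second gene. How many of all peaks touch a second gene is not given here, so this too is only a description.

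**Figure D1:**
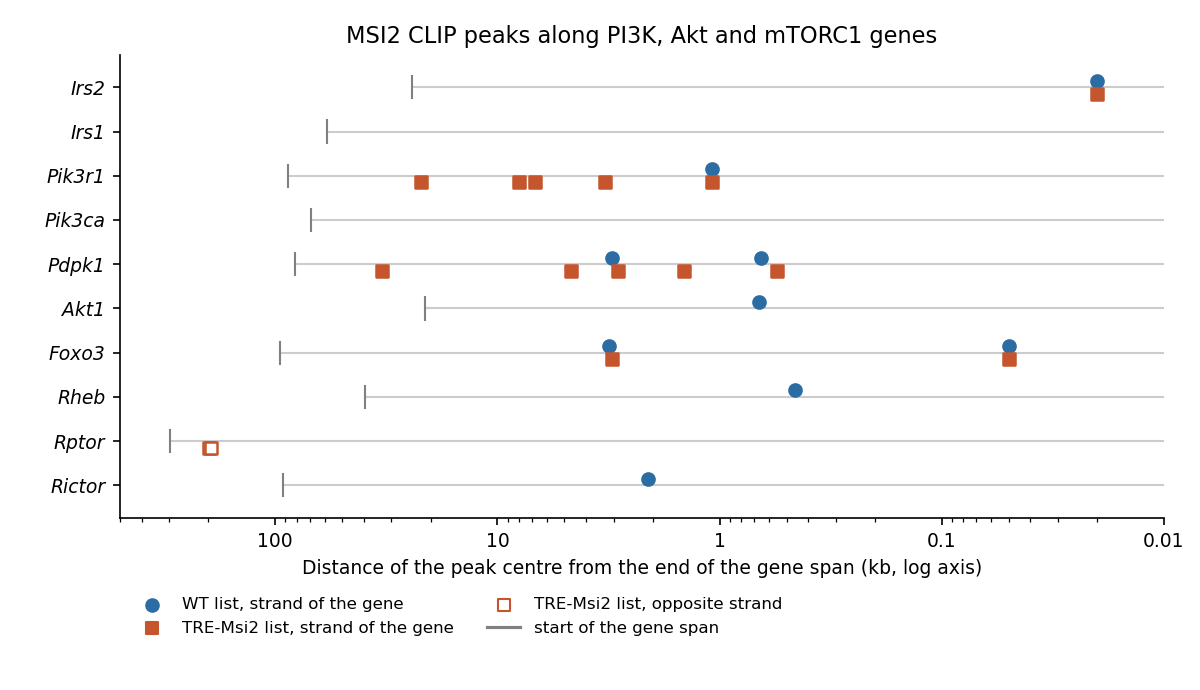
Each row is a gene, with the 3' end of its span at the right and its start marked by a tick; the x axis is the distance of each peak's centre from that end, in kb on a log axis. Circles are WT peaks, squares TRE-Msi2 peaks, and open squares lie on the opposite strand. All 9 WT peaks lie within 3.15 kb of the end, and the open squares of Rptor lie 195 kb and 198 kb from it.

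Irs2 encodes the adaptor that links insulin and IGF receptors to PI3K, and it carried the highest score of the 10 genes in both lists. The gene spans positions 10984681 to 11008929 of chromosome 8 on the minus strand. Its only peak, at 10984601 to 10984800, was the same 200-nt bin in the WT and TRE-Msi2 lists and crossed the annotated 3' end, with 120 of its 200 bases inside the span. The WT score was 34 (Poisson 95% interval 23.5 to 47.5) and the TRE-Msi2 score was 37 (26.1 to 51.0). These intervals, here and for the other genes, treat the score as a read count and cover at most counting error. They do not allow for the absence of bins under the lowest single-bin score, which matters most for scores near it. Scores as high or higher were held by 6.33% of WT peaks and 11.0% of TRE-Msi2 peaks. The peak thus stood in the upper part of each list, at tied ranks 697 to 763 of 12061 and 1707 to 1857 of 16939.

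Irs1, the paralogous adaptor, held no peak in either list. Its span on the minus strand of chromosome 1 runs from 82233105 to 82291439. The nearest peak on its strand lay 465 kb (WT) and 130 kb (TRE-Msi2) before its start. A bin scoring under the lowest single-bin score would not appear on its own, so the lack of a peak does not show a lack of binding.

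Pik3r1 encodes the p85alpha regulatory subunit that holds PI3K at phosphorylated adaptors. It held 1 WT and 5 TRE-Msi2 peaks, all on its own strand, in a span from 101680761 to 101768217 on the minus strand of chromosome 13. The WT peak, at 101681646 to 101682045, was a joined peak of 400 nt with a score of 18, its centre 1.08 kb from the gene end. The TRE-Msi2 list held a peak at the very same position, with a score of 16.7. The other 4 TRE-Msi2 peaks had no WT counterpart. They lay 3.28, 6.78, 7.98 and 22.0 kb from the end, with scores of 26 (a joined peak of 400 nt), 21, 20 and 20. The 3 single-bin scores were at or just above the lowest single-bin score of that list, and the score of 26 was above its median of 24.7.

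Pik3r1 has 2 start sites in the RefSeq promoter table, at 101768217 and 101692630, the second of which begins a shorter transcript. Of the 5 TRE-Msi2 peaks, 4 lay downstream of both start sites. The peak 22.0 kb from the end, at 101702646 to 101702845, lay between the start sites and so only within the span of the longer transcript. From the first to the last of the 4 peaks within 10 kb of the end, 7200 nt were spanned and 1200 nt covered.

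Pik3ca encodes the p110alpha catalytic subunit, and no peak touched its span on the plus strand of chromosome 3 (32397065 to 32466112). A TRE-Msi2 peak on the same strand, at 32467679 to 32467878, lay 1.57 kb beyond its annotated end, with a score of 28 and no WT counterpart. The peak fell inside the neighbouring gene Kcnmb3, which is annotated on the minus strand, so it was antisense to Kcnmb3. In the TRE-Msi2 list, 33.8% of peaks scored as high or higher. With spans extended by 2 kb, a setting added after the peak positions were seen, Pik3ca joined the genes with a TRE-Msi2 peak, which then numbered 6. The WT list had no peak within 112 kb of its span.

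**Figure D2:**
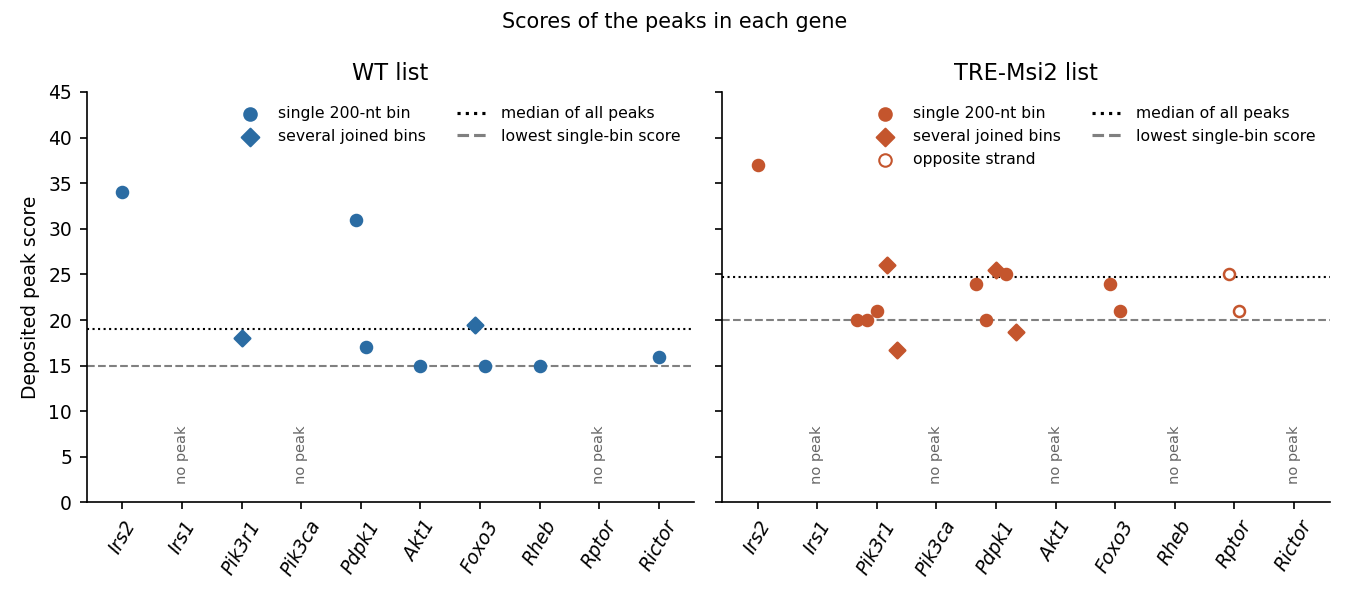
Deposited scores of all peaks in the 10 genes, by gene (x axis) and list (panel); circles are single 200-nt bins, diamonds joined bins, and open circles lie on the opposite strand. The dotted line is the median of all peaks (19 in WT, 24.7 in TRE-Msi2) and the dashed line the lowest single-bin score (15 and 20). The Irs2 peaks (34 and 37) and 1 WT peak of Pdpk1 (31) stand farthest above the dotted lines.

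Pdpk1 encodes PDK1, the kinase that phosphorylates the activation loop of Akt, and it held 2 WT and 5 TRE-Msi2 peaks on its own strand. The gene lies on the minus strand of chromosome 17, from 24073680 to 24155619. The WT peaks were at 24074234 to 24074433, with a score of 17 (9.90 to 27.2), and at 24076634 to 24076833, with a score of 31 (21.1 to 44.0). The score of 31 was matched or passed by 8.97% of WT peaks. These 2 peaks stood 0.653 and 3.05 kb from the end of the gene.

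Both WT positions of Pdpk1 lay wholly inside wider TRE-Msi2 peaks. One was a peak of 400 nt at 24074034 to 24074433 with a score of 18.7, the other a peak of 600 nt at 24076234 to 24076833 with a score of 25.5. The remaining 3 TRE-Msi2 peaks had no WT counterpart and were single bins. They lay 1.45, 4.65 and 33.3 kb from the end, with scores of 25, 20 and 24. The last, at 24106834 to 24107033, stood alone in the body of the gene. The 4 peaks within 10 kb of the end covered 1400 nt in the TRE-Msi2 list, against 400 nt for the 2 WT peaks. Both WT peaks were single bins, whereas the 1400 nt includes the joined peaks of 400 and 600 nt. The caller's deposited p-values for those were 0.333353 and 0.182861, while no single-bin TRE-Msi2 peak was above 0.000255121. How bins were joined is not stated, so the covered lengths do not measure the extent of binding.

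Pdpk1 and Pik3r1 were the genes of the 10 with more TRE-Msi2 than WT peaks on their own strand. Among 2674 protein-coding genes with own-strand peaks in both lists, 37.2% held more TRE-Msi2 than WT peaks, 8.04% held at least 3 more, as Pdpk1 did, and 3.40% held at least 4 more, as Pik3r1 did. At least 5 own-strand peaks were held by 385 of 3593 genes in the TRE-Msi2 list, or 10.7%. The TRE-Msi2 list is the longer one, and its depth is unknown.

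A joined peak's score is not a plain read count. Of the 3627 TRE-Msi2 peaks 400 nt wide, 1069 had a deposited p-value between 0.3 and 0.4, and in all 1069 the score multiplied by 3 was whole to within 0.01. The first TRE-Msi2 peaks of Pik3r1 (16.7) and Pdpk1 (18.7) were of this kind, with deposited p-values of 0.333378 and 0.333353. Their scores fell below the lowest single-bin score of 20.

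Akt1 encodes the kinase at the centre of the route, and its only peak was a WT peak at 112654390 to 112654589, in a span on the minus strand of chromosome 12 from 112653821 to 112674884. The peak lay 0.668 kb from the end of the gene. Its score was 15 (8.40 to 24.7), the lowest that any single-bin WT peak had. The nearest TRE-Msi2 peak on its strand was 523 kb away.

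Rheb encodes the small GTPase that switches on mTORC1. Its only peak was a WT peak at 24803183 to 24803382 on the minus strand of chromosome 5, 0.460 kb from the end of a span running from 24802823 to 24842361. This score too was 15, a value tied over ranks 9893 to 11213 of 12061. The nearest TRE-Msi2 peak on its strand lay 431 kb away.

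Rictor encodes the defining subunit of mTORC2, the complex that phosphorylates the hydrophobic motif of Akt. Its only peak was a WT peak at 6798201 to 6798400, 2.10 kb from the end of its span on the plus strand of chromosome 15 (6708349 to 6800401). The score was 16 (9.15 to 26.0), which 80.2% of WT peaks matched or passed. The nearest TRE-Msi2 peak on either strand lay 385 kb away.

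The 3 genes with WT peaks alone thus carried a single peak each, at or just above the lowest single-bin score of that list; joined WT peaks had scores down to 10.3. In the WT list, 337 protein-coding genes of known strand held a lone own-strand single-bin peak scoring 15 or 16, and 98 of them (29.1%, exact binomial 95% interval 24.3% to 34.2%) held no own-strand TRE-Msi2 peak. The share was 13.5% (10.3% to 17.2%) for lone peaks scoring 17 to 20 and 5.81% (3.86% to 8.34%) for those over 20. Akt1, Rheb and Rictor were the 3 members of the lowest class, and all 3 lacked a TRE-Msi2 peak. The limits of that class were set from the scores of these 3 genes, already known to lack one. Their place in it is therefore no test of the 29.1%. These shares describe the lists and have no replicate check.

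Foxo3 encodes a transcription factor that Akt phosphorylates and keeps out of the nucleus, and it held 2 peaks in each list at matching places. Its span on the minus strand of chromosome 10 runs from 42181845 to 42276695. The peak at 42181795 to 42181994 crossed the annotated 3' end, with 150 of 200 bases inside, and scored 15 (8.40 to 24.7) among WT and 21 (13.0 to 32.1) among TRE-Msi2 peaks. The further peak began at 42184795 in both lists. It was 400 nt wide with a WT score of 19.5 and 200 nt wide with a TRE-Msi2 score of 24. The peaks of Foxo3 were close to or below the median of their list, and none was present in one list alone.

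Rptor encodes Raptor, which presents substrates to mTORC1, and no peak on its own strand was found in either list. The gene is the longest of the 10, on the plus strand of chromosome 11 from 119602905 to 119899591. The TRE-Msi2 peaks at 119701087 to 119701286 and 119704487 to 119704686 lay on the minus strand, with scores of 21 (13.0 to 32.1) and 25 (16.2 to 36.9), and touched no other annotated gene. They stood 198 and 195 kb from the end of Rptor, at 33.1% and 34.3% of its length from the start. The count of 5 genes with a TRE-Msi2 peak includes Rptor, although these peaks are not evidence for its own transcript. Of all TRE-Msi2 peaks over a single protein-coding gene of known strand, 13.7% lay on the opposite strand.

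WT and TRE-Msi2 peaks in the 10 genes overlapped at 6 places, in Irs2, Pik3r1, Pdpk1 and Foxo3. At 3 of the 6 the peaks had identical ends, namely the Irs2 peak, the first Pik3r1 peak and the Foxo3 peak at the gene end. Of the 9 WT peaks, 66.7% had a TRE-Msi2 counterpart, against 91.1% of WT peaks over a single protein-coding gene. Of the 15 TRE-Msi2 peaks, 40.0% had a WT counterpart, against 58.3%. Overlap here means at least 1 shared base on the same strand. When only the 12061 best-scoring TRE-Msi2 peaks were kept, the overlapping places fell from 6 to 3, because low-scoring TRE-Msi2 peaks in Foxo3, Pik3r1 and Pdpk1 were left out.

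**Figure D3:**
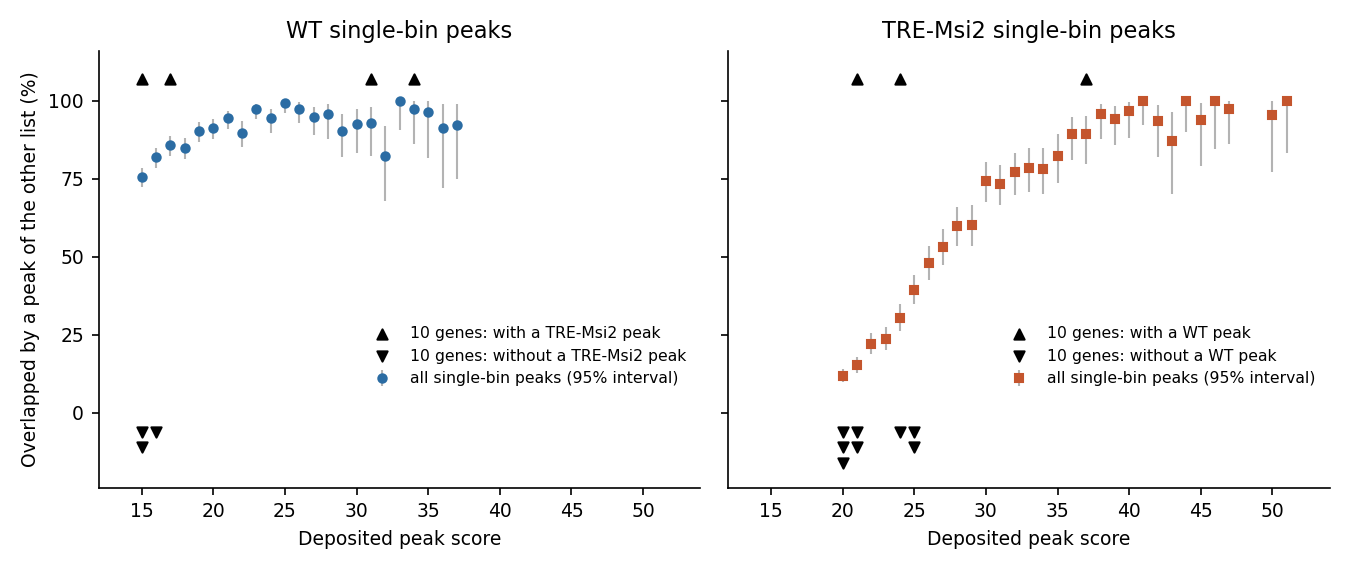
Share of single-bin peaks over a single protein-coding gene that were overlapped by the other list (y axis, percent, with exact binomial 95% intervals) at each score held by at least 20 peaks (x axis). Triangles give the scores of single-bin peaks in the 10 genes, above the data where the other list had a peak and below it where not; their height has no value. The WT share starts at 75.6% at a score of 15, and the TRE-Msi2 share climbs from 11.9% at a score of 20 to 89.2% at 37.

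Presence in both lists followed the score over all genes. In the WT list, 75.6% (72.4% to 78.6%) of single-bin peaks with a score of 15 had a TRE-Msi2 counterpart, as the Foxo3 peak did and the peaks of Akt1 and Rheb did not. At a score of 34, that of Irs2, 97.4% (86.2% to 99.9%) did. In the TRE-Msi2 list the share was 11.9% (9.87% to 14.1%) at a score of 20, 15.2% at 21, 30.4% at 24 and 39.5% at 25. Of the TRE-Msi2 single-bin peaks in the 10 genes, those without a WT counterpart had scores of 20 to 25. The 3 with one were the Irs2 peak at 37 and the Foxo3 peaks at 21 and 24.

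Peaks gathered at the 3' ends of these genes. All 9 WT peaks had their centre within 5 kb of the end, at distances of 20 nt in Irs2 to 3150 nt in Foxo3 and with a median of 668 nt. Among WT own-strand peaks in genes with spans in the same range, 62.7% lay within 5 kb of the end, where even placement would put 10.6%. Of the 13 own-strand TRE-Msi2 peaks, 9 lay there, with a median distance of 3050 nt, against 52.7% over like genes and 10.4% for even placement. The 4 farther out were 3 in Pik3r1 and 1 in Pdpk1, and all 4 had no WT counterpart. Even placement here treats introns like exons, so nearness to the end cannot be told apart from the coverage of spliced RNA. None of the 24 peaks overlapped a window from 250 bases before to 50 after an annotated start site. The share of all peaks that do so is not given here, so this count is a description only.

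**Figure D4:**
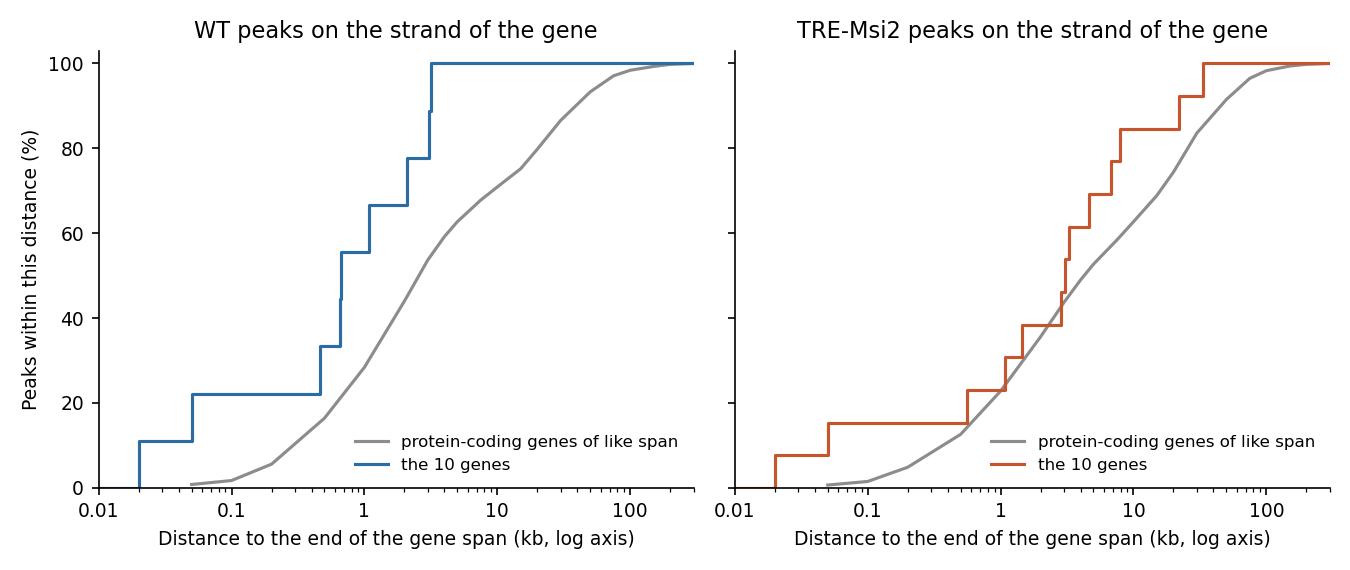
Cumulative share of own-strand peaks (y axis, percent) by distance from the peak centre to the 3' end of the gene span (x axis, kb, log axis), for the 10 genes (coloured steps) and for protein-coding genes with spans from 21.1 to 297 kb (grey). The WT steps reach 100% at 3.15 kb, where the grey curve is between 53.7% and 59.2%; the TRE-Msi2 steps reach it at 33.3 kb.

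Other genes of the route were read from a list of 75 pathway genes in 10 roles, the 10 genes above included. Of the 65 others, 19 held a WT peak (29.2%) and 28 a TRE-Msi2 peak (43.1%) on either strand, against 20.3% and 24.9% of all protein-coding genes. Over genes with spans of 21.1 to 297 kb the shares were 28.1% and 33.3%, and the 65 were not matched for span. All 19 with a WT peak also held a TRE-Msi2 peak, and 9 held a TRE-Msi2 peak alone. The strand was known for 54 of the 65, of which 14 held a WT peak and 21 a TRE-Msi2 peak on their own strand. Among the higher-scoring 50% of peaks, 18 of the 65 held a TRE-Msi2 peak. The list was also drawn up with earlier results known.

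Receptors held peaks on either strand in 4 of 6 cases in both lists (66.7%), against 20.3% (WT) and 24.9% (TRE-Msi2) of all protein-coding genes. Of these genes with peaks, the strand was known for Met and Igf1r alone. Erbb3, a partner of ErbB2 that docks PI3K directly, held 2 WT peaks (top score 27) and 5 TRE-Msi2 peaks, whose top score of 50 was the highest of the 75 genes in that list. The strand of Erbb3 was not known here, so which of its peaks were on its own strand could not be read. Met, the hepatocyte growth factor receptor, held 2 and 5, all on its own strand, with top scores of 17 and 24. The lone Igf1r peak, with scores of 21 and 26, was antisense to the gene in both lists.

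Besides Irs2, no adaptor held a WT peak, and Gab1 (20) and Shc1 (27) each held 1 TRE-Msi2 peak. Of 6 PI3K subunit genes, Pik3r1 alone held a peak in either list, so Pik3cb, Pik3cd, Pik3r2 and Pik3r3 were without one, like Pik3ca. Among the phosphatase genes, Phlpp2, which dephosphorylates Akt, held 1 WT and 3 TRE-Msi2 peaks, with top scores of 16 and 27.

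Sgk1, a kinase that PDK1 also activates, held 2 WT and 7 TRE-Msi2 peaks, with top scores of 30.8 and 47, while Akt2 held no peak. Among Akt targets, Gsk3b held 5 and 6 peaks, with top scores of 24 and 35.5. Foxo1, a paralog of Foxo3, held 3 peaks in the TRE-Msi2 list alone, with a top score of 25. Neither Tsc1 nor Tsc2, the brake on Rheb, held a peak, so the Rheb peak was the only one among the 5 genes of that role.

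Mtor itself and Mlst8 held no peak. Prr5, an mTORC2 subunit, held 1 WT and 1 TRE-Msi2 peak, scoring 29 and 38, Prr5l held 1 TRE-Msi2 peak (27), and the TRE-Msi2 peak of Mapkap1 (20) lay on the opposite strand. Among mTORC1 targets, the translation factors Eif4b (2 WT and 4 TRE-Msi2 peaks, top scores 35 and 29) and Eif4e (1 and 2, top scores 31 and 34) held peaks. Eif4ebp2, a translation repressor that mTORC1 inactivates, held 5 and 7, with top scores of 25 and 36. Rps6kb1 and Eif4ebp1 held none.

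Among 18 genes that carry nutrient and stress signals to mTORC1, 5 held a WT peak (27.8%) and 9 a TRE-Msi2 peak (50.0%). The shares were 20.3% and 24.9% over all protein-coding genes, and 28.1% and 33.3% over those with spans of 21.1 to 297 kb. The 18 were not matched for span. Sesn1, a stress-induced inhibitor of mTORC1, held 6 WT and 6 TRE-Msi2 peaks, the strongest at 27 and 35, and the Rag GTPase gene Rragd held 5 in each, with top scores of 23 and 25. The 4 with a TRE-Msi2 peak alone were Prkaa1, a catalytic subunit of AMPK (3 peaks, top score 24), and, with 1 peak each, Lamtor3 (30), Rragb (21) and Lamtor5 (17.7). The strand of Lamtor3 was not known here.

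**Figure D5:**
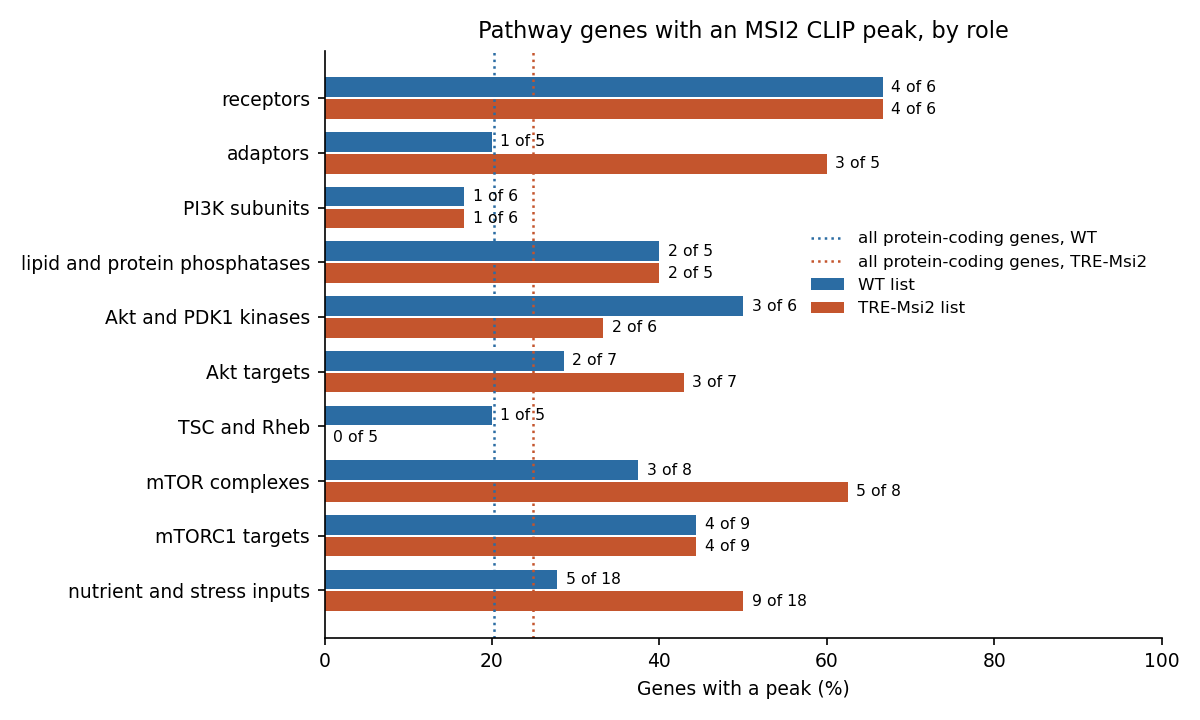
Share of genes with a peak on either strand (x axis, percent, bars from 0) by role in the pathway list of 75 genes, the 10 genes included, for the WT and TRE-Msi2 lists; labels give counts. Dotted lines mark all protein-coding genes (20.3% WT, 24.9% TRE-Msi2). Receptors stand at 4 of 6 in both lists, and PI3K subunits at 1 of 6.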

How the data were processed

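Per the submitters' processing notes, reads were handled with cutadapt and TopHat, and the builds mm9 and mm10 are named without roles or versions. The deposited file names describe Piranha peaks called on merged samples after duplicate removal. The authors' deposited lists join a score and a p-value in 1 cell per peak; how joined peaks were scored is not stated there. Spans of 21900 protein-coding genes came from RefSeq (GRCm38.p6). The strand was taken from the RefSeq promoter table, which held 17492 of them (79.9%), all 10 genes described and 54 of the 65 others. A gene had a peak when at least 1 base fell in its span. Exon, intron and untranslated region were not assigned, and no sequence under a peak was read, because no genome of this build was used here. Counts were made with Python 3.11.15, pandas 2.3.3 and numpy 2.4.6, intervals with scipy 1.17.1 (exact Poisson and exact Clopper-Pearson), and the overlap functions were tested on simulated intervals. The text names all 10 genes and, of the other pathway genes, the 5 highest scores and 3 highest peak numbers per list and those in 1 list alone, with others as counts or for their role; Met, Phlpp2, Igf1r and Insr were singled out after their values were seen. Some genes of the pathway list are counted but not reported individually here. The genes and lists were chosen with earlier results of these data known. Alternatives were the higher-scoring 50%, a shortened TRE-Msi2 list, own strand, single spans, 50% inside, extended spans and stricter or unstranded overlap.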

Additional observations from a re-analysis of the deposited data

How the results depend on the processing

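Of the recomputed values, 47 stayed within 1.5 times of those reported and 10 did not, all 10 on raising the score limit. Restricted to the higher-scoring 50% of either list, 3 of the 10 genes held a WT peak in place of 7, and 4 a TRE-Msi2 peak in place of 5. Peaks in both lists were held by 2 genes in place of 4. The order of the lists turned only through the opposite-strand peak of Rptor, without which neither list held more of the genes. WT peaks in the 10 genes went from 9 to 3 and TRE-Msi2 peaks from 15 to 5. Overlapping places numbered 2 in each direction in place of 6, and other pathway genes with a TRE-Msi2 peak went from 28 to 18. When only the 12061 best-scoring TRE-Msi2 peaks were kept, 7 of the 15 peaks stayed and 3 overlapping places were left in each direction. Counting peaks on the strand of the gene alone removed Rptor, and with it 13 TRE-Msi2 peaks in 4 genes were left. Peaks touching 1 gene span only, 50% of the peak inside the span and spans extended by 1 kb left the counts over the 10 genes as they were. No paired analysis was possible because each deposited list pools the libraries of a genotype, and for the same reason no library could be left out. Depth is unknown, and no bin with a score under 15 (WT) or 20 (TRE-Msi2) is listed as a single-bin peak.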

Other observations

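Beyond the 10 genes, a peak on the strand opposite to the gene recurred in both lists in Igf1r, and the 2 WT peaks of Insr lay on different strands, as did its 3 TRE-Msi2 peaks. The strand of Insr is not in the promoter table used here. Over all protein-coding genes of known strand, opposite-strand peaks had a counterpart in the other list in 89.4% (WT) and 61.3% (TRE-Msi2) of cases, beside 91.7% and 58.1% for own-strand peaks. Neither Rptor peak had a counterpart. What these opposite-strand reads come from was not tested.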
